A study of Mus musculus with 4 samples.

Results

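Neonatal enterocytes in which Sprr2a2, Enpp3 and 4 further genes took an unusually large share of the RNA were compared with enterocytes in which this share was lowest. Cells with 1000 to 6000 detected genes, at least 2000 unique molecular identifiers (UMIs, which count distinct RNA molecules) and a mitochondrial share under 20% were kept, and those with at least 3 of the enterocyte genes Fabp1, Fabp2, Apoa1, Apoa4, Alpi and Lct and fewer than 3 UMIs over Bglap, Bglap2 and Bglap3 were taken as enterocytes. Within each library, enterocytes were ranked by the share of their UMIs in Nt5e, Sprr2a2, Serpinb6b, Mmp15, Enpp3 and Nhs. The highest 10% were the members and the lowest 50% served as the comparison. This gave 2687 members among 26865 enterocytes and 36202 called cells, or 7.42% of called cells, of which 626 and 736 came from ileum replicates 1 and 2 and 792 and 533 from jejunum replicates 1 and 2. The comparison held 13431 cells. The members were therefore chosen by measured values of the 6 genes, and their levels of these genes are given as a description.

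The 4 libraries were made from the jejunal and ileal epithelium of wild-type mice at postnatal day 6, with 1 library for each region of each of 2 mice. Replicate 1 of both regions came from mouse 5442, labelled male and batch 1, and replicate 2 from mouse 5752, labelled female and batch 2, so mouse, labelled sex and batch cannot be told apart. The labels name no treatment, transgene or Cre line. The ileal libraries held 131400239 and 125067265 UMIs and the jejunal libraries 64391480 and 57951874, so depth went with region. Among called cells, 1 barcode was shared between the jejunal libraries and 1 between ileum replicate 2 and jejunum replicate 2.

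Enterocytes are born in the crypts and between the villi and move to the villus tip, where they are shed, and they change their programme on the way, from defence genes near the base to lipoprotein and purine genes near the tip. Nt5e encodes CD73, a surface enzyme that makes adenosine from AMP and is known as a tip gene of the adult villus, and Enpp3 encodes a surface enzyme that cleaves extracellular nucleotides. Before weaning the enterocytes also take up milk proteins by endocytosis and digest them in lysosomes, most of all in the ileum.

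Sprr2a2, which encodes a small proline-rich protein of the cornified envelope family, and Enpp3 supplied most of the UMIs that chose the members. The 250 bases before the start of each gene are shown because these genes led the ranking in different regions, with capitals marking matches, on either strand, to the letters GATAA (GATA-type), TTTAT (CDX-type), CAAAG (HNF4-type) and CACCC (KLF-type). They are RefSeq sequences on GRCm38.p6, for Sprr2a2 chr3:92250397-92250646 on the plus strand and for Enpp3 chr10:24836196-24836445 on the minus strand.
Sprr2a2: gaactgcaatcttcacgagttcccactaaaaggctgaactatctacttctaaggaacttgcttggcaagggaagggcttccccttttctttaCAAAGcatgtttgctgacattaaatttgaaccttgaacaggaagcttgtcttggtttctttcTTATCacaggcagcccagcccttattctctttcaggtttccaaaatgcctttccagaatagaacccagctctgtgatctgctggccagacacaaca
Enpp3: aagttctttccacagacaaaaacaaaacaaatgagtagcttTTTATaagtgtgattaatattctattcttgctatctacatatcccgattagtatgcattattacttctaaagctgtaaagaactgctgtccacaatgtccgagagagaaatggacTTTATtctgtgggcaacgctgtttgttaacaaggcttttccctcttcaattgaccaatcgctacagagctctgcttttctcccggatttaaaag
The Sprr2a2 window held 1 GATAA and 1 CAAAG match, and the Enpp3 window 2 TTTAT matches. Among 32851 promoters of the same length, 22.6% held GATAA, 37.3% TTTAT, 48.6% CAAAG and 52.0% CACCC, so each match is common. None of the 4 was found in all 6 promoters: CACCC was found in those of Nt5e (4 matches), Serpinb6b (2), Mmp15 (1) and Nhs (1). Base composition also varied, from 36.8% GC in Enpp3 and 44.0% in Sprr2a2 to 62.4% in Nhs, 63.6% in Mmp15 and 72.0% in Nt5e, against a median of 52.4% over all promoters. Sprr2a2 has a close copy, Sprr2a1, whose 300 promoter bases and last 400 transcript bases were identical to it in the reference, so 3′ reads of these copies cannot be told apart. Sprr2a1 was listed at 0 in members and comparison cells of every library, and values given for Sprr2a2 may include its RNA. A further copy, Sprr2a3, shared 78.3% of the 50-base windows of the last 400 transcript bases.

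In the ileum the members were Sprr2a2-rich cells. Sprr2a2 stood at 10079 and 4814 CPM (a gene's UMIs per 1000000 UMIs of the summed cells) in the members of ileum replicates 1 and 2, against 92.1 and 43.8 CPM in the comparison cells. In the jejunum it stood at 702 and 301 CPM in members, against 3.96 CPM and 0. It thus took 88.1% and 80.6% of the members' UMIs over the 6 genes in the ileum but 37.3% and 23.7% in the jejunum.

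Enpp3 was nearly level across the libraries, at 904, 833, 947 and 763 CPM in the members of ileum replicates 1 and 2 and jejunum replicates 1 and 2. The comparison cells held 29.4, 25.2, 8.52 and 0 CPM. Because Sprr2a2 was low there, Enpp3 was the highest of the 6 genes in 73.6% and 82.0% of jejunal members and in 0.16% and 5.43% of ileal members. Mmp15, a membrane-bound matrix metalloproteinase, was as even, at 191, 227, 216 and 180.3 CPM in members and 10.5, 8.38, 3.25 and 0 CPM in comparison cells.

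The other 3 genes were low, and higher in the ileum. Nt5e was at 59.3, 18.3, 5.65 and 15.9 CPM in members in the same order, against 1.43, 1.17, 0.637 and 0 CPM in comparison cells. Nhs, mutated in Nance-Horan syndrome and a regulator of actin remodelling, was at 112, 53.6, 7.01 and 3.73 CPM in members and at most 2.13 CPM in comparison cells. Serpinb6b, an intracellular serine protease inhibitor, was at 91.6, 25.8, 4.52 and 3.11 CPM in members and at most 0.57 CPM in comparison cells. The name Nt5e and Sprr2a2 high thus described the ileal members for Sprr2a2 alone. Nt5e was a minor gene in every library, with 0.30% to 1.25% of the members' UMIs over the 6 genes. In most jejunal members Enpp3 led the 6 genes, though ileal members held more Enpp3 in UMIs that had no part in the choice.

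**Figure D1:**
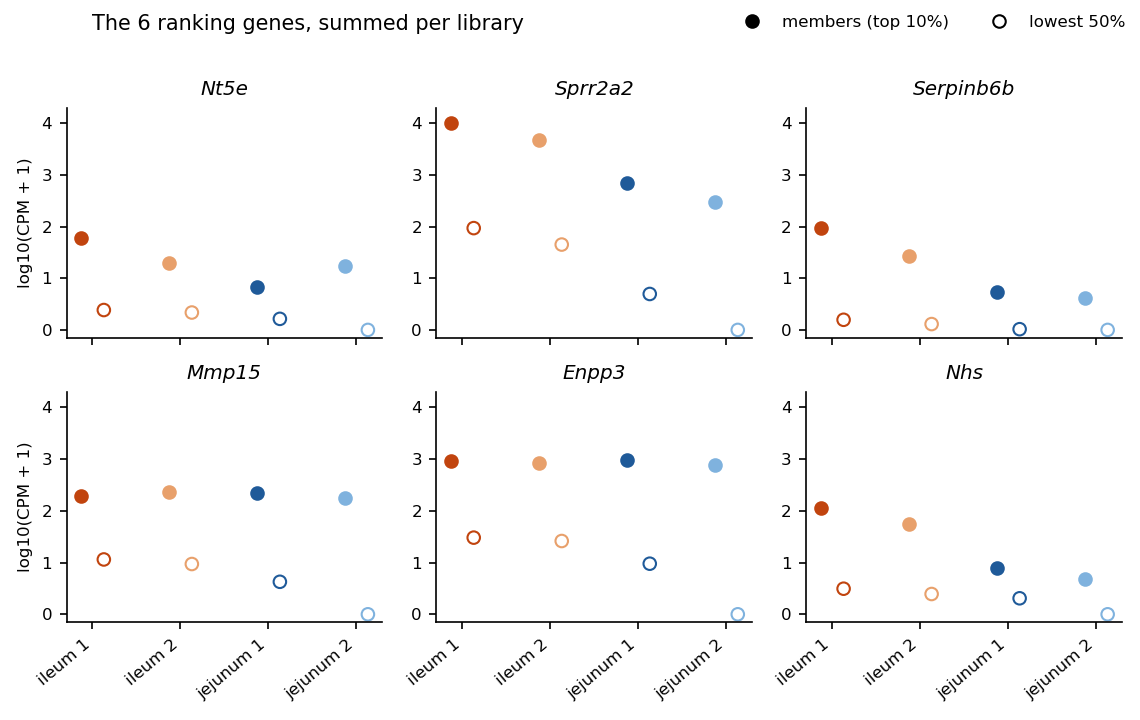
Level of each ranking gene, as log10 of CPM plus 1, in the summed members (filled) and the summed lowest 50% (open) of each library. The genes chose the cells, so the gap and the levels are a description: Sprr2a2 falls from 10079 CPM in members of ileum replicate 1 to 301 CPM in members of jejunum replicate 2, while Enpp3 stays between 763 and 947 CPM. In UMIs that had no part in the choice, Enpp3 was lower in jejunal than in ileal members.

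The threshold fell at very different levels. The lowest member and the next cell below it held 0.648% and 0.647% of their UMIs in the 6 genes in ileum replicate 1, 0.235% and 0.235% in ileum replicate 2, 0.101% and 0.101% in jejunum replicate 1, and 0.0676% and 0.0676% in jejunum replicate 2. The median member had 84 and 36 UMIs over the 6 genes in the ileum but only 7 and 5 in the jejunum, with a lowest count of 2. In jejunum replicate 2, 50.1% of enterocytes had none, so the whole comparison class there was at 0.

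How many of the 6 genes a member held differed between the regions. In ileum replicate 1, 163 members held 4 and 141 held 5, against 17 and 4 in jejunum replicate 1, where 348 held 2. All 6 were detected in 57, 11, 1 and 0 members of ileum replicates 1 and 2 and jejunum replicates 1 and 2, and a single gene in 19, 11, 125 and 153. Sprr2a2 was detected in 100%, 99.5%, 59.2% and 38.3% of members, and Enpp3 in 94.4%, 95.9%, 96.5% and 94.4%. Nt5e was detected in 28.8%, 10.2%, 2.7% and 5.1% of members. When each cell was thinned to 2000 UMIs the shares were 100%, 98.6%, 43.6% and 23.1% for Sprr2a2 and 13.3%, 3.9%, 1.3% and 3.9% for Nt5e. As a check on free RNA, the few cells with 5 or more UMIs over an immune list were read, a type taken to lack Sprr2a2 and Enpp3. Any such cells that were members had been left out, which can lower the counts. Of the cells read, 4 of 10, 4 of 9, 2 of 15 and 0 of 8 held a Sprr2a2 UMI, and 1, 1, 1 and 0 an Enpp3 UMI. Their median depth was 7985.5, 3674, 5462 and 6532.5 UMIs, against 7618.5, 6108, 3959.5 and 4344 UMIs in members. Since members were chosen for UMIs of these genes, the shares are given side by side and are no test of expression above free RNA.

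The ranking was more repeatable in the ileum than in the jejunum. With cells chosen on a random 50% of their UMIs, 93.9% and 93.2% of the ileal members and 73.7% and 73.7% of the jejunal members were chosen again. Read in the other 50% of the UMIs, which had no part in the choice, members held 1.13%, 0.594%, 0.154% and 0.102% of their UMIs in the 6 genes. The lowest 50% held 0.0183%, 0.0132%, 0.0105% and 0.008% there. Members held more than the lowest 50% in every library in UMIs that had no part in the choice. The 6 genes had been picked from these same cells, so the values describe the ranking and are no test.

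Each gene was next left out of the ranking and read in members chosen by the other 5, so that its own UMIs had no part in the choice. The 6 genes had been picked together from these same cells, so the values are a description, with no test. Sprr2a2 was then at 7341, 3288, 501 and 191 CPM in members of ileum replicates 1 and 2 and jejunum replicates 1 and 2, against 349, 96.5, 19.8 and 16.8 CPM in comparison cells. Its log2 fold change was 4.59 ± 0.24 (SE, 4 libraries, edgeR fit). Enpp3 was at 854, 771, 610.4 and 406 CPM against 81.4, 84.3, 106 and 81.0 CPM, a log2 fold change of 2.97 ± 0.20. Both genes were higher in members in 4 of 4 libraries.

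Mmp15 behaved alike, at 182, 219, 168 and 133 CPM against 13, 13.4, 20.1 and 16.2 CPM (log2 fold change 3.65 ± 0.18). Serpinb6b was at 90.7, 25.6, 2.94 and 1.24 CPM against 0.674, 0.447, 0.503 and 0.402 CPM (5.66 ± 0.70), with only 13 and 4 UMIs in the jejunal members. Nt5e was at 59.0, 18.3, 3.16 and 4.87 CPM against 2.31, 2.39, 2.37 and 3.52 CPM (2.71 ± 0.66). Nhs was at 109, 52.0, 5.42 and 1.85 CPM against 2.67, 2.28, 3.46 and 4.0 CPM (3.36 ± 0.90). The regions were not compared by a test here, but in the jejunum Nt5e was at most 4.87 CPM in members and Nhs was lower in members of jejunum replicate 2. Leaving out single libraries moved Nt5e between 1.65 and 3.22 and Nhs between 2.15 and 4.08. Which cells were members depended on the leading gene. Without Sprr2a2, 64.9% and 63.7% of ileal members and 80.6% and 88.0% of jejunal members were chosen again, and without Enpp3, 96.2% and 93.9% of ileal but 59.7% and 53.3% of jejunal members.

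Members were shallower cells than the comparison cells, with medians of 7618.5 against 12699, 6108 against 13430, 3959.5 against 5270 and 4344 against 5469.5 UMIs. The median mitochondrial share was higher in members in 3 libraries (4.84% against 3.30%, 5.50% against 3.29%, 7.68% against 5.74%) and level in jejunum replicate 2 (11.06% against 11.07%). The part of depth and mitochondrial share in the differences below was not tested beyond repeats. Members ranked within 10 depth bins shared 84.3%, 77.9%, 86.4% and 80.1% of the original members, at equal median depth, and gave 5928 called genes. A mitochondrial limit of 10% shared 95.8%, 90.8%, 67.7% and 43.9% of the original members and gave 5727. Between 1.52% and 3.19% of members were among the highest 6% of doublet scores, below the 4.70% to 5.47% of comparison cells, and leaving those scores out gave 5820.

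Outside the 6 genes, 5814 of 14764 genes tested differed between members and comparison cells (39.4%; edgeR quasi-likelihood test over the 4 libraries, library as a block, Benjamini-Hochberg adjusted p under 0.05). Of these, 2776 were higher in members (18.8% of genes tested) and 3038 lower (20.6%), with a median log2 fold change of 0.02 over all genes. Counts of list genes below are to be read beside these shares. The 6 genes were picked from earlier results on these cells, so these p-values describe how the transcriptome moved along the ranking and are no test of a separate cell type. Without trimmed mean of M-values (TMM) scaling the median over all genes was -0.12 and 6033 genes were called, of which 32.1% were higher in place of 47.7%, so small increases depend on the scaling.

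The 12 genes with the greatest increases by the naming rule included a respiratory chain subunit, an iron carrier and a junction protein. Cox6b2, an alternative subunit of cytochrome c oxidase best known from testis, was at 87.9, 91.3, 58.8 and 49.4 CPM in members of ileum replicates 1 and 2 and jejunum replicates 1 and 2. Comparison cells held 7.65, 9.90, 4.83 and 4.27 CPM, a log2 fold change of 3.60 ± 0.11 (edgeR, Benjamini-Hochberg adjusted p = 2.1e-06). The summed members of each library stood above the comparison cells of all 4 libraries, in the jejunum as in the ileum.

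Others reached higher levels in the ileum. Trf, which encodes the iron carrier transferrin, was at 237, 154, 25.5 and 20.2 CPM in members against 9.41, 7.77, 5.94 and 5.77 CPM (log2 fold change 3.61 ± 0.48). Cgnl1, a junction protein that binds actin and microtubules, was at 175, 97, 16.1 and 3.42 CPM against 17.9, 7.36, 2.72 and 1.36 CPM (3.27 ± 0.27). Dnm3, a dynamin that cuts vesicles from membranes, was at 119.9, 52.7, 11.1 and 6.22 CPM against 9.10, 5.55, 3.29 and 3.41 CPM (2.90 ± 0.40). All of these were higher in members in 4 of 4 libraries.

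Ppef1, a calcium-binding protein phosphatase, had the highest fold change of these 12 genes (3.85 ± 0.32) but was near the floor in jejunum replicate 2 (0.622 against 0.502 CPM, after 109.6, 24.8 and 13.3 CPM in members of the other libraries). Pip4k2a, a phosphoinositide kinase of endosomes and lysosomes, was at 187, 130.2, 116 and 68.4 CPM against 38.9, 17.3, 22.1 and 9.54 CPM (2.73 ± 0.12). The kinase Sgk2 (3.33 ± 0.18), the amyloid precursor-like protein Aplp1 (2.98 ± 0.18), the apolipoprotein L gene Apol7a (2.92 ± 0.46), the calcium-activated chloride channel regulator Clca4a (2.86 ± 0.33), Slfn2 of the Schlafen family (2.82 ± 0.38) and the orphan receptor Gpr151 (2.80 ± 0.19) completed the 12.

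The 12 genes with the greatest decreases included a cyclin, a fatty acid desaturase and a crypt marker. Ccnd2, a cyclin that drives entry into the cell cycle, was at 8.08, 7.35, 9.95 and 27.7 CPM in members against 109.6, 97.8, 129 and 176 CPM (log2 fold change -3.28 ± 0.18). Fads2, the desaturase at the first step of long-chain polyunsaturated fatty acid synthesis, was at 9.51, 8.49, 4.3 and 6.22 CPM against 113, 113, 51.7 and 42.4 CPM (-3.34 ± 0.15). Hao2, a peroxisomal hydroxyacid oxidase, was at 12.4, 10.3, 5.20 and 3.42 CPM against 106, 110.1, 59.4 and 37.8 CPM (-3.19 ± 0.12). For these genes the members stood far below the comparison cells in every library.

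Olfm4, a marker of crypt base cells, was at 3.64, 6.86, 14.5 and 25.5 CPM against 53.8, 37.2, 172 and 196 CPM (-3.04 ± 0.19). Its difference was not called with cells ranked by the mean standardized level of the 6 genes (-0.45; edgeR, Benjamini-Hochberg adjusted p = 0.60). With cells holding 2 or more UMIs over 9 core crypt genes left out its value was 0.48 (edgeR, Benjamini-Hochberg adjusted p = 0.059), an alternative that removes cells by Olfm4 itself among other genes. Sdr16c5, a retinol dehydrogenase (-3.31 ± 0.29), the membrane protein gene Ms4a18 (-3.48 ± 0.28), the phosphatase inhibitor Ppp1r1b (-3.13 ± 0.17), the antiviral membrane protein Ifitm2 (-3.13 ± 0.25), the ETS factor Ehf (-3.01 ± 0.28), the lipopolysaccharide-binding protein Lbp (-2.94 ± 0.26), the chemokine Ccl25 (-2.93 ± 0.13) and the sulfotransferase Sult6b2 (-2.92 ± 0.22) completed the 12.

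**Figure D2:**
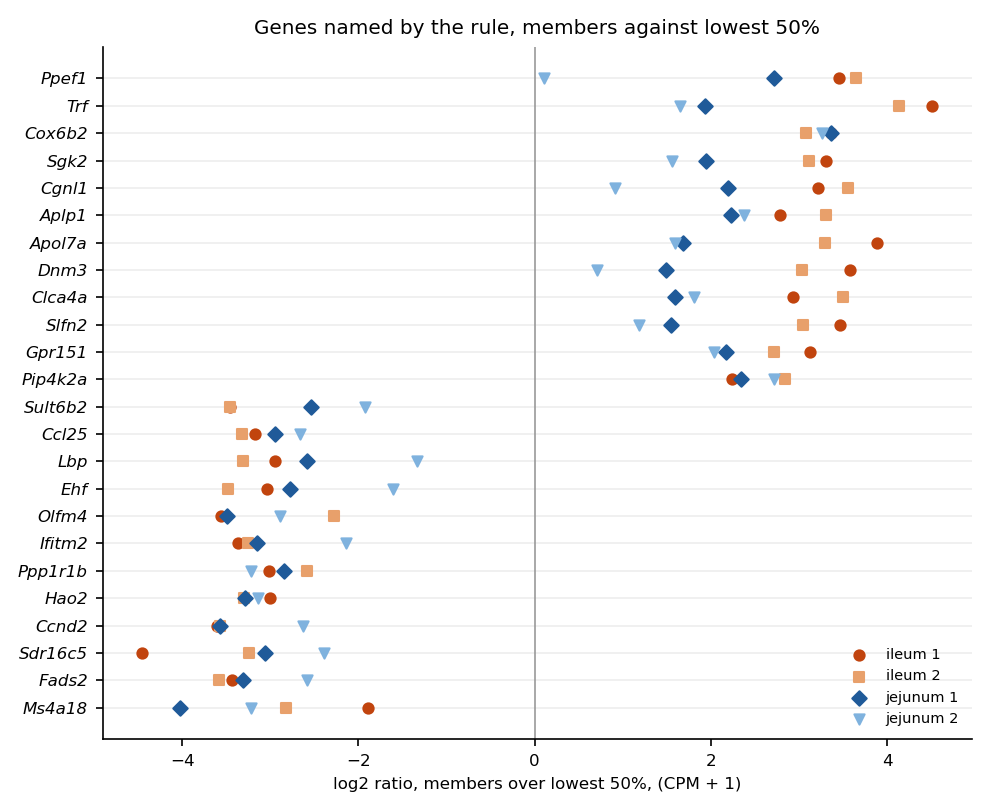
The 24 genes outside the ranking with the highest and lowest fold changes by the stated rule, as log2 of the ratio of CPM plus 1 in members to that in the lowest 50%, with a point for each library. All points of a gene lie on the same side of 0, and for Trf, Cgnl1, Apol7a, Dnm3, Clca4a and Slfn2 the ileal points lie to the right of the jejunal points.

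Genes of the villus base were lower in members and several, but not most, tip genes were higher. Lypd8, which keeps flagellated bacteria off the epithelium, was at 181, 88.5, 77.8 and 62.2 CPM in members of ileum replicates 1 and 2 and jejunum replicates 1 and 2, against 874, 783, 673 and 429 CPM (log2 fold change -2.68 ± 0.15). Ccl25, which draws lymphocytes to the small intestine, was at 11.6, 14.9, 28.9 and 47.9 CPM against 112, 157, 229 and 309 CPM. Nlrp6, an inflammasome sensor, was at 3.33, 9.80, 25.1 and 26.7 CPM against 58.3, 61.1, 158 and 149 CPM (-2.71 ± 0.21). These genes were far lower in members of every library.

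Of 8 base-list genes tested, 5 were lower and 0 higher in members, with a median log2 fold change of -1.97 beside 0.02 over all genes. The others lower were Dmbt1 (-2.44), a mucosal defence glycoprotein, and the cytokine Il18 (-1.51). Reg3b and Reg3g did not pass the test, at 1.37 and 1.40. Of 10 tip-list genes tested, 5 were higher and 0 lower, with a median of 0.27. Klf4, a transcription factor of differentiated surface cells, was at 441, 395, 228 and 270.5 CPM in members against 151, 129.6, 89.3 and 85.4 CPM (1.69 ± 0.08; edgeR, Benjamini-Hochberg adjusted p = 6.7e-06). The apolipoprotein genes Apoa4 (1.16), Apoa1 (1.08) and Apob (0.76) and the growth factor receptor Egfr (0.29) were the others, of which Apoa4 and Apoa1 also served to gate enterocytes. Slc28a2, Fos, Junb, Cdh1 and Creb3l3 lay between -0.13 and 0.25 without passing, and Ada, a purine enzyme of the adult tip, was too low to be tested. The 9 genes of the mid-villus list were mixed, with 3 higher and 2 lower and a median of 0.01.

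These changes were graded along the ranking. In ileum replicate 1, Lypd8 was at 874, 575, 409.5, 363, 283 and 181 CPM from the lowest 50% through each further 10% to the members. Klf4 was at 151, 187, 201, 249.97, 286 and 441 CPM over the same bins. The other 3 libraries showed the same order for Klf4, whereas Lypd8 and Sox9 in jejunum replicate 2 were level from the lowest 50% to the next bin. Since cells of neighbouring bins share a library, this is a description and was not tested.

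**Figure D3:**
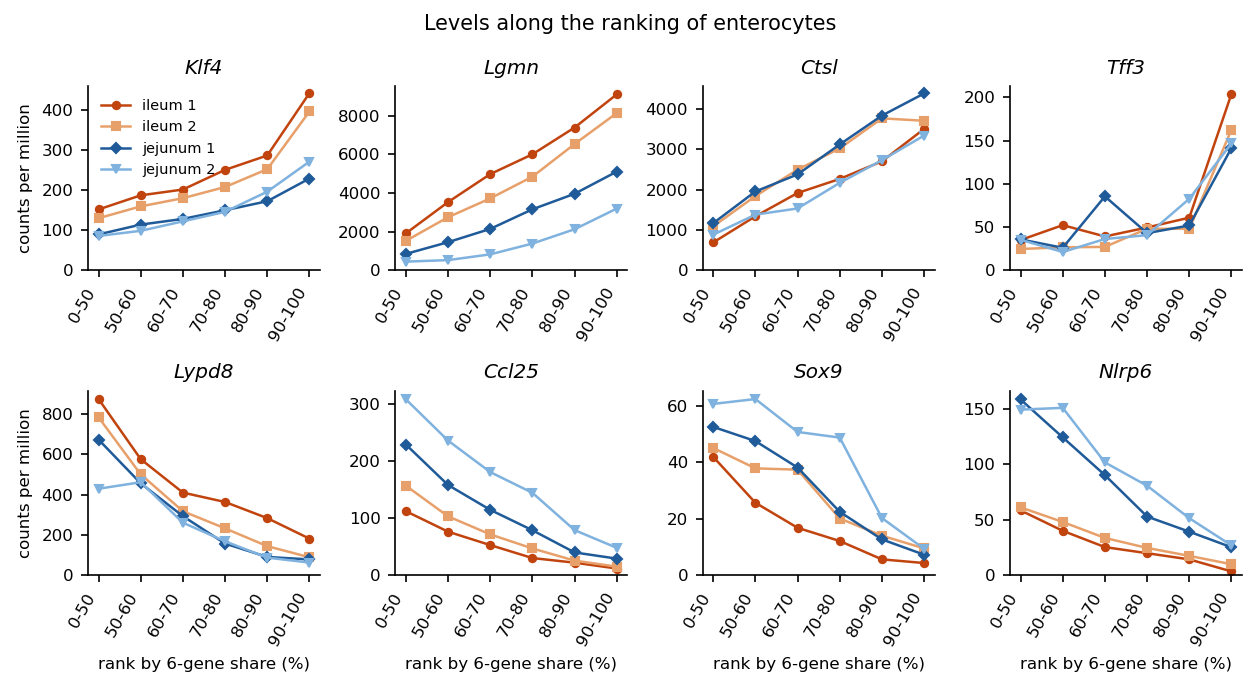
CPM of 8 genes in the lowest 50% of enterocytes and in each 10% above it, by share of UMIs in the 6 ranking genes, with a line for each library. Klf4, Lgmn and Ctsl are higher and Lypd8, Ccl25, Sox9 and Nlrp6 lower towards the members at 90-100, in steps over most of the range (Lypd8 and Sox9 of jejunum replicate 2 are level at its start), while Tff3 is high mainly in the last bin.

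Goblet cell genes were higher in the summed RNA of the members. All 8 goblet-list genes tested were higher and 0 lower, with a median log2 fold change of 2.15 beside 0.02 over all genes. Tff3, a secreted trefoil peptide, was at 204, 162, 141 and 147 CPM in members against 35.0, 24.6, 35.7 and 35.2 CPM (2.48 ± 0.13; edgeR, Benjamini-Hochberg adjusted p = 9.1e-06). Muc2, the main intestinal mucin, was at 55.3, 15.4, 52.0 and 34.2 CPM against 9.95, 7.41, 5.63 and 2.96 CPM (2.67 ± 0.34), and Fcgbp, a mucus protein, at 243, 239, 152 and 103 CPM against 75.5, 68.5, 19.7 and 16.0 CPM (2.39 ± 0.20). Members were higher in 4 of 4 libraries for each of these in the summed RNA. At 2000 UMIs per cell, Tff3 was detected in 27.6% and 24.3% of ileal members, against 9.1% and 5.3% of comparison cells. In jejunum replicate 1 the shares were 7.4% and 7.0%. Fcgbp was detected there in 11.4% of members and 4.1% of comparison cells, and Muc2 in 1.8% and 1.2%. For Tff3 in jejunum replicate 1, the higher sum thus came with a like share of cells holding the gene.

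Clca1 (2.42), the goblet factor Spdef (1.91) and Zg16 (1.73) were also higher, at lower levels. The 10 genes of the goblet list summed to 527, 434, 387 and 369 CPM in members against 135, 112, 78.4 and 78.2 CPM, and none was at 0 in members. With cells holding 3 or more goblet-list UMIs left out, which removes cells by the counts of these same genes, 3 of the 8 were higher and the median was 0.78. This kept 41.1% and 51.1% of ileal members against 93.9% and 96.2% of jejunal members. The count of genes called between members and comparison cells was then 5740. Of 5 Paneth-list genes tested 4 were higher, among them Lyz1 (1.16), but 1 was without TMM scaling, 1 with members ranked within depth bins and 0 with no library block, with sums of 24.7 to 77.4 CPM in members and 17.5 to 41.4 CPM in comparison cells. The part of goblet RNA in the other differences was not tested beyond these counts.

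Lysosomal genes were higher in the members. Of 49 tested, 37 were higher and 2 lower (Ctsc, -0.60, and Sgsh, -0.39), with a median log2 fold change of 0.54. Without TMM scaling 34 were higher and 4 lower, with a median of 0.41. Lgmn, the lysosomal protease legumain, was at 9094, 8129, 5101 and 3191 CPM in members of ileum replicates 1 and 2 and jejunum replicates 1 and 2, against 1907, 1521, 846 and 446 CPM (2.67 ± 0.12; edgeR, Benjamini-Hochberg adjusted p = 4.7e-06). Ctsl, cathepsin L, was at 3506, 3708, 4385 and 3342 CPM against 689.7, 1089.9, 1167 and 883 CPM (2.13 ± 0.12). Both were higher in members of every library by well over the spread between replicates.

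Cathepsin B (Ctsb, 1.28), cathepsin D (Ctsd, 1.09), the glycosidase Naglu (1.64), the acid lipase Lipa (1.16) and the membrane protein Cd68 (2.55) were among the others. The list summed to 38224, 39641, 29816 and 26244 CPM in members against 20585, 21445, 14817 and 13266 CPM. In neonatal enterocytes the lysosomal proteases digest protein taken up from milk. Of 28 apical endocytosis genes tested, 16 were higher and 2 lower, with a median of 0.33 (12 and 4 without TMM). The protein uptake receptor complex was mixed: its adaptor Dab2 was at 1186, 1028, 589 and 429.9 CPM in members against 713, 619.6, 377 and 273 CPM (0.84 ± 0.08), Amn rose by 0.37, and Cubn did not pass the test (0.23 ± 0.08; edgeR, Benjamini-Hochberg adjusted p = 0.056).

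Lrp2, the large endocytic receptor megalin, was at 109, 83.1, 16.3 and 3.42 CPM against 23.3, 16.5, 4.33 and 1.31 CPM (2.27 ± 0.14). Fcgrt, the neonatal Fc receptor that carries maternal IgG across the epithelium, was at 2082, 2288, 5781 and 5361 CPM against 549.6, 718, 3293 and 3327 CPM (1.42 ± 0.21). Tfrc, the transferrin receptor, was lower in members (-1.51 ± 0.22), in the direction opposite to Trf.

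Of 27 fat absorption genes, 14 were higher and 3 lower, with a median of 0.31 (11 and 4 without TMM). Cd36, a fatty acid receptor, was at 11.6, 5.39, 367 and 325 CPM in members against 1.37, 1.77, 82.0 and 109 CPM (2.17 ± 0.20), and the cholesterol transporter Npc1l1 at 309, 331, 476 and 469.7 CPM against 170.5, 179.6, 221 and 226 CPM (1.12 ± 0.08). Mogat2 (-0.60) and the lipid droplet protein Plin2 (-0.38) were lower. The 6 genes used to gate enterocytes are part of the rule and are given as a description, with log2 fold changes of 1.26 for Alpi, 1.16 for Apoa4, 1.08 for Apoa1, 0.30 for Lct, -0.26 for Fabp1 and -0.30 for Fabp2.

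Most adhesion genes tested were higher in the members. Of 25 matrix and adhesion genes tested, 18 were higher and 3 lower, with a median of 0.68. The integrin subunit Itgb5 was at 322, 297, 231 and 122 CPM in members against 119.7, 91.3, 79.9 and 59.95 CPM (1.58 ± 0.11). Lama3, a laminin chain of the basement membrane, was at 179, 148, 94.3 and 56.9 CPM against 69.6, 52.3, 41.6 and 29.9 CPM (1.40 ± 0.10). Ceacam1 (1.55) and Itgav (1.02) were also higher, and the collagen receptor subunit Itga2 (-1.91) and the hyaluronan receptor Cd44 (-1.78) were lower.

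Of 15 matrix protease and inhibitor genes tested, 9 were higher and 3 lower, with a median of 0.47. Adam15 (1.02), Tmprss4 (0.81) and Adam9 (0.74), which cut proteins at the cell surface, were higher, as was Mmp14 (0.51), another membrane-bound metalloproteinase. Prss32 was lower (-1.99). In the Serpinb family of Serpinb6b, 5 of 21 listed genes were tested and 3 were higher. Serpinb9, an inhibitor of granzyme B, was at 17.1, 8.17, 7.23 and 5.28 CPM against 0.70, 0.489, 0.369 and 0.653 CPM (4.22 ± 0.30; edgeR, Benjamini-Hochberg adjusted p = 2e-05). Serpinb6a, abundant in both classes, differed by 0.59 and Serpinb1a by 0.50.

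In the cornified envelope list, 5 of 22 genes could be tested, with 2 higher and 1 lower. Sprr1a was at 15.7, 10.3, 1.13 and 3.11 CPM in members against 0.855, 0.447, 0.402 and 2.41 CPM (3.16 ± 0.67), and Evpl, which encodes envoplakin, was higher by 1.21. Tgm2, a crosslinking enzyme, was lower (-3.21). Sprr2a3, which shares sequence with Sprr2a2, was at 24.1, 7.68, 1.13 and 0.311 CPM in members and at most 0.363 CPM in comparison cells, and was not tested. Of the 22 genes, 9 were at 0 in members of all libraries.

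Purine and nucleotide genes, the pathway of Nt5e and Enpp3, were called about as often as other genes. Of 25 tested, 10 were higher and 1 lower (44.0% called, beside 39.4% of all genes), with a median of 0.26, and 9 were higher and 5 lower without TMM. Adora2b, a receptor for the adenosine that CD73 makes, was at 10.3, 27.1, 100.4 and 83.0 CPM in members against 3.34, 7.49, 41.0 and 34.3 CPM (1.63 ± 0.12). Xdh, an enzyme of purine breakdown, was at 119.8, 124, 175 and 199 CPM against 48.1, 49.5, 98.4 and 125 CPM (1.18 ± 0.12). The AMP deaminase Ampd3 (1.87), the nucleotidases Entpd5 (0.68) and Entpd8 (0.68) and the receptor Adora2a (2.31, at a low level) were also higher.

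Within the Enpp family the other members did not all move with Enpp3. Enpp7, a brush border sphingomyelinase, was at 68.3, 65.2, 132 and 136 CPM against 12.8, 12.6, 28.0 and 25.4 CPM (2.50 ± 0.09; edgeR, Benjamini-Hochberg adjusted p = 2.5e-06). Enpp5 was higher by 0.86. Enpp1 (0.26), Enpp2 (0.01) and Enpp4 (-0.78) did not pass the test. Nucleoside uptake by Slc28a2 was at 296, 143, 239 and 159 CPM in members and 276, 211, 263 and 184 CPM in comparison cells, with overlapping ranges. Of 19 brush border hydrolases tested, 6 were higher and 4 lower: Ace (1.51), the neutral ceramidase Asah2 (1.11) and Enpp7 against the disaccharidases Mgam (-1.65) and Treh (-1.48) and the aminopeptidases Anpep (-1.71) and Xpnpep2 (-0.99).

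Ribosomal protein genes were lower in the members. Of 77 tested, 75 were lower in members and 0 higher, with a median of -1.10, and their sum was 26344, 23956, 20250.4 and 20933 CPM in members against 56684, 54913, 47033 and 44644 CPM. The count stayed at 75 and the median at -1.02 when members were ranked within depth bins. The nuclear RNAs Malat1 (0.98), Neat1 (1.3) and Meg3 (1.99) were higher, being 3 of 5 tested on that list. The mitochondrial and depth values above moved with these differences, and their part in them was not tested beyond the repeats.

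Of 23 stem and cycling genes tested, 18 were lower and 1 higher, with a median of -2.01. Mki67 was at 1.58, 3.10, 2.49 and 4.04 CPM in members against 18.9, 13.3, 27.2 and 31.0 CPM (-2.83 ± 0.23), Lgr5 was lower by -2.10 and Sox9 by -2.60 on the log2 scale. The exception, Axin2 (1.07), is a target of Wnt signalling. The list summed to 463, 429, 371 and 492 CPM in members against 790.4, 708, 1077 and 1234 CPM. With core crypt cells left out, which kept 91.9%, 92.0%, 90.2% and 86.9% of members, 4 were lower and the median was -0.20, and with cells ranked by the mean standardized level of the 6 genes 0 were lower and the median was -0.26. Without the core crypt cells the number of genes called over the whole table was 5165, the base list had 5 genes lower and a median of -1.81, and the lysosome list 35 higher and a median of 0.45.

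Other groups were mixed, and some were called about as often as all genes (39.4%, with 18.8% higher and 20.6% lower). Transcription factors were called in 41.5%, cell death genes in 36.7% and actin and keratin genes in 36.4%, against 48.0% to 63.2% in the others below. Of 27 BMP, TGFβ and EGF response genes, 12 were higher and 5 lower, with a median of 0.29 (9 and 6 without TMM), including Tgfb1 (2.37) and the BMP targets Id1 (1.14), Id2 (0.97) and Id3 (1.78). Of 41 intestinal transcription factors, 7 were higher and 10 lower, with 4 and 18 without TMM, and Hnf4a was nearly level (0.22). Of 18 neonatal and maturation genes, 2 were higher, among them the glutamine synthetase gene Glul (1.56), and 8 lower, among them the urea cycle enzymes Otc (-1.77) and Cps1 (-0.77) and the fetal RNA H19 (-2.17). Immediate early genes had 4 of 25 higher and 8 lower (Myc, -2.86), hypoxia genes 7 of 22 and 4, inflammation genes 8 of 19 and 4 (Pigr, -2.84), cell death genes 7 of 30 and 4, and actin and keratin genes 8 of 33 and 4 (Krt19, -2.73), the last with a median of 0.10 that turned to -0.04 without TMM.

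Markers of other cells were few. Of 15 immune genes 3 could be tested and 0 passed, but the list summed to 121 CPM in members of jejunum replicate 2 and to 3.33, 2.29 and 18.1 CPM in members of ileum replicates 1 and 2 and jejunum replicate 1. Comparison cells held 6.19, 11.7, 13.3 and 6.53 CPM, and 1 of the 15 genes was at 0 in all members. With cells holding 2 or more immune-list UMIs left out, 5833 genes were called between members and comparison cells. Enteroendocrine genes had 1 of 13 higher and 2 lower, tuft genes 0 of 4 higher and 1 lower, and stromal genes 1 of 4 higher and 0 lower. None of 6 erythroid genes was tested.

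**Figure D4:**
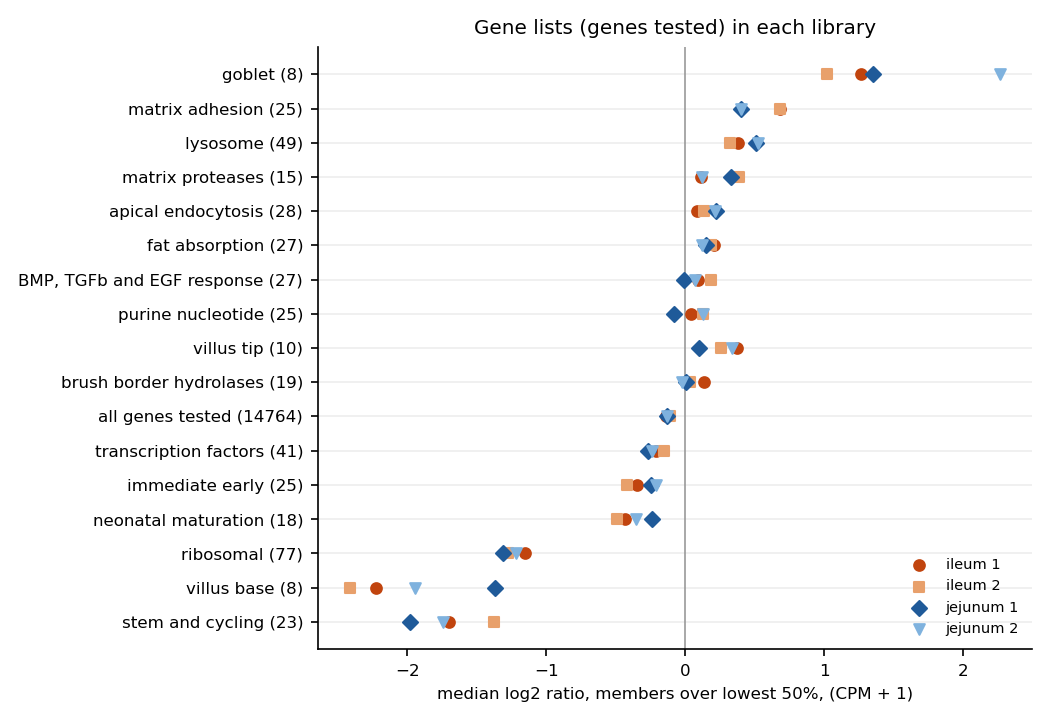
Median log2 ratio of CPM plus 1, members over lowest 50%, of the tested genes of 16 lists and of all genes, with a point for each library and the number of genes in brackets. On this scale, which has no TMM factor, the median of all genes lies slightly below 0, ribosomal, villus base and stem and cycling genes lie to its left and goblet, adhesion and lysosomal genes to its right in all 4 libraries.

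Members of the ileum were next compared with members of the jejunum. Of 12410 genes tested, 1493 differed (12.0%; edgeR quasi-likelihood test, 2 libraries each, Benjamini-Hochberg adjusted p under 0.05), 712 higher in the ileum (5.74%) and 781 higher in the jejunum (6.29%). With mouse as a block, which the shared origin of both segments allows, 2805 were called. It was 659 without ileum replicate 1. Without TMM scaling 1640 were called, of which 65.4% were higher in the ileum in place of 47.7%. The difference in depth between the regions and the Sprr2a2 or Enpp3 lead described above went with this comparison.

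Genes higher in ileal members included Afp, the fetal albumin-like protein, at 399.5 and 159 CPM against 2.03 and 2.49 CPM in jejunal members (log2 fold change 6.82 ± 0.55). Fabp6, the ileal bile acid-binding protein, held 643 UMIs in ileal members and 3 in jejunal members, a ratio of 132 (exact 95% interval 44.9 to 640.2 for counting error only). Fabp6 was itself lower in members than in comparison cells, at 35.5 and 68.4 CPM against 277 and 509.7 CPM in the ileum. The desaturase Scd2 stood at 170.1 and 37.6 CPM against 1.36 and 0.622 CPM (6.47 ± 0.92). It too was lower in ileal members than in ileal comparison cells, which held 398 and 186 CPM, against 0.335 and 0.251 CPM in jejunal ones. Afp was at 133 and 147 CPM in ileal and 6.71 and 4.27 CPM in jejunal comparison cells. Afp and Scd2 thus differed between the regions in comparison cells as well.

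Emp2, a membrane protein of epithelia, held 404 UMIs against 3 (ratio 82.7, interval 28.1 to 403). Lce6a, a late cornified envelope gene, held 323 UMIs in ileal and 0 in jejunal members and so was at least 66.1-fold higher, with a floor of 3 counts over the jejunal members. Lce6a and Sprr2a2 belong to the same cornified envelope gene complex.

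Genes higher in jejunal members included Mfsd2a, a transporter of omega-3 lysolipids, at 167.5 and 571 CPM against 1.11 and 0.327 CPM in the ileum (-9.09 ± 0.82). The protease inhibitor Serpina1a stood at 373.5 and 538 CPM against 2.38 and 2.29 CPM (-7.73 ± 0.30), and Fam13a at 388 and 513 CPM against 2.06 and 5.23 CPM (-7.08 ± 0.40). The cytochrome P450 gene Cyp2d26 held 30 and 215 UMIs against 0 and 1 (ratio 399, interval 70.9 to 15820). All of these were also at higher levels in jejunal than in ileal comparison cells.

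Gzma, a granule protease of cytotoxic lymphocytes, held 29 and 240 UMIs in jejunal members against 1 and 0 in ileal members. These UMIs came from 4 and 4 jejunal members, and the gene was not among those tested once cells with 2 or more immune-list UMIs were left out. Among the lists, 10 of 26 fat absorption genes were higher in jejunal members and 0 in ileal members. Of 49 lysosomal genes, 12 were higher in ileal and 2 in jejunal members. Over all genes tested, 5.74% were higher in ileal and 6.29% in jejunal members. Lysosomal Lgmn was higher in the ileum by 0.92, Dab2 by 0.99 and Lrp2 by 3.09, and Fcgrt was higher in the jejunum (-1.48).

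Whether the members differed from comparison cells by the same amount in ileum and jejunum was addressed by an interaction term between region and class. Of 16057 genes tested, 747 passed (4.65%; edgeR quasi-likelihood test with library as a block, Benjamini-Hochberg adjusted p under 0.05), 378 with a positive interaction (2.35%), that is a higher member-minus-comparison log2 fold change in the ileum, and 369 with a negative one (2.3%). The sign gives the order of the fold changes and not which is larger in size. The number rested on single libraries: it was 106 without jejunum replicate 2 and 1591 without ileum replicate 2. With cells holding goblet-list UMIs left out it was 470.

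Phgr1, a small protein of differentiated gut epithelium, was at 112 and 70.2 CPM in ileal members against 23.8 and 57.8 CPM in ileal comparison cells. In the jejunum the order was opposite, at 3.39 and 9.02 CPM against 25.7 and 37.3 CPM, and the difference of the log2 fold changes was 3.67 ± 0.59 (edgeR, Benjamini-Hochberg adjusted p = 0.004). Cyp11a1, the enzyme that starts steroid synthesis, was at 82.5 and 35.1 CPM against 12.4 and 11.7 CPM in the ileum and 3.84 and 2.49 CPM against 8.05 and 5.77 CPM in the jejunum (3.31 ± 0.43). Sfn, the 14-3-3 sigma protein of stratified and stressed epithelia, was at 107 and 52.3 CPM against 20.3 and 20.6 CPM in the ileum and 20.3 and 32.6 CPM against 32.2 and 56.6 CPM in the jejunum (2.63 ± 0.28). These genes were higher in members in the ileum and lower in members in the jejunum.

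Ctnnd2, delta-catenin, had the same pattern (2.82 ± 0.57), but its interaction did not pass the test with members ranked within depth bins (1.34; edgeR, Benjamini-Hochberg adjusted p = 0.37), with a mitochondrial limit of 10% (1.17, adjusted p = 0.38) or with the top 20% as members (1.19, adjusted p = 0.32). It was also lost in 3 further alternatives of ranking or doublets and without jejunum replicate 2 (2.42), and was -0.34 with stem and cycling cells left out. Emp2 (3.89 ± 0.90), near the floor in the jejunum, lost its call in 9 alternatives, among them depth bins (3.80, adjusted p = 0.081) and without jejunum replicate 2 (4.28, adjusted p = 0.27). Among the listed genes Sprr1a had a positive interaction (3.61 ± 0.55). On the other side, Ephb2, a receptor that positions cells along the crypt axis, was at 8.08 and 17.0 CPM against 57.2 and 64.4 CPM in the ileum but 87.7 and 209.8 CPM against 97.9 and 152 CPM in the jejunum (-2.47 ± 0.25). Fstl4 was at 31.2 and 22.7 CPM against 3.42 and 4.42 CPM in the jejunum and at 4.44 and 2.61 CPM against 3.47 and 1.96 CPM in the ileum (-2.42 ± 0.38). Anxa8 was lower in ileal members and near the floor in the jejunum (-3.11 ± 0.57).

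The antimicrobial lectin genes Reg3b and Reg3g were called (-3.32 ± 0.67 and -3.28 ± 0.39) but rested on jejunum replicate 1. Reg3b was at 139 CPM in members against 8.92 CPM there and at 0.933 against 1.46 CPM in jejunum replicate 2, and its interaction was 0.81 without jejunum replicate 1. The copies are similar in sequence, so their separate counts are uncertain. Among genes named above, the interaction was positive for Fcgrt (1.05), Apoc2 (1.51), Id3 (2.22) and Axin2 (1.14), whereas for Klf4 (0.07), Ctsl (0.14), Lgmn (-0.38) and Enpp7 (0.07) the interaction did not pass the test.

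**Figure D5:**
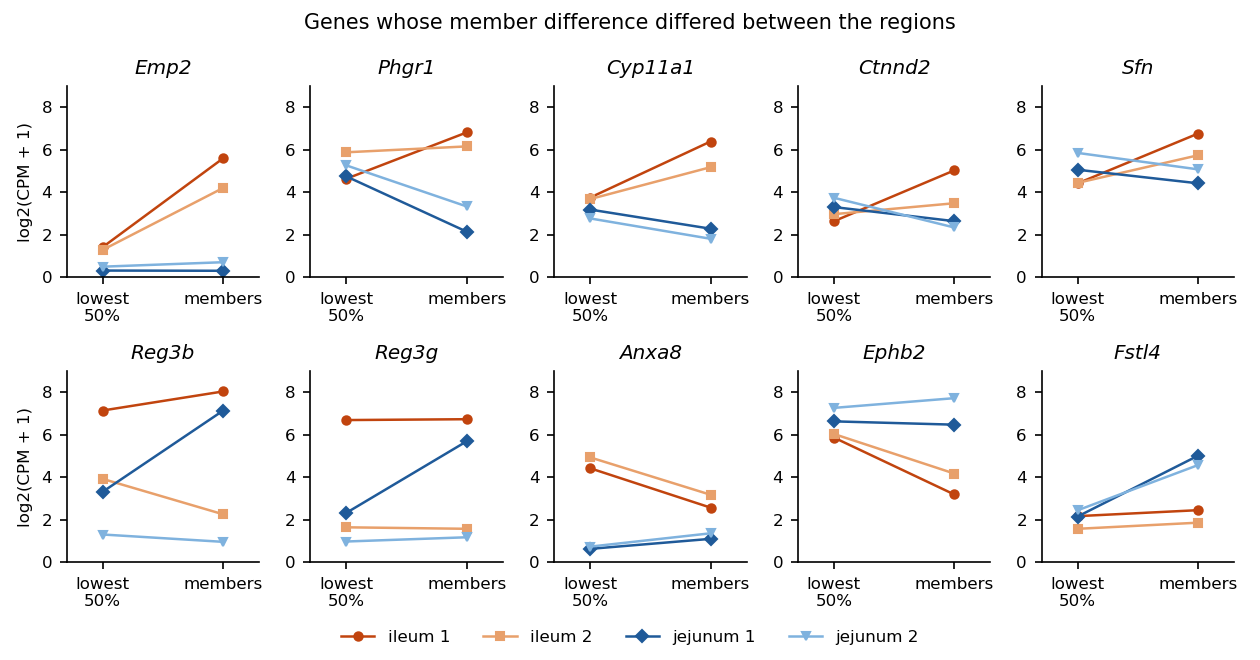
Level of the 10 genes named for the interaction, as log2 of CPM plus 1, in the lowest 50% and in the members of each library. Phgr1, Cyp11a1, Ctnnd2 and Sfn rise towards the members in both ileal libraries and fall in both jejunal libraries, and Reg3b and Reg3g rise steeply in jejunum replicate 1 alone among the jejunal libraries.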

How the data were processed

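Single-cell 3′ RNA libraries of jejunal and ileal epithelium from 2 wild-type mice at postnatal day 6 were analysed, with 1 library per region and mouse. Per the labels and the study's methods, the authors used EDTA to free the epithelium and dispase to separate its cells, prepared libraries with the PIPseq V T20 kit, and ran PIPseeker with cells called at sensitivity 3. The submitters' processing notes name GRCm39, and the annotation was not given in the sources used here. The deposited values are whole-number UMI counts for each gene in each called cell, without normalization.

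Cells were gated and ranked as described in the report (7255, 8170, 8232 and 5470 cells passed the quality limits in ileum replicates 1 and 2 and jejunum replicates 1 and 2), and 1855 cells with 3 or more Bglap UMIs were left out. Scrublet in scanpy 1.11.5 called 9 cells as doublets in all and so had not worked, so no doublets were removed and the highest 6% of scores were left out as an alternative. Counts of the cells of a class were added up within each library, the 6 ranking genes were removed, low genes were filtered with filterByExpr, and edgeR 4.0.16 (R 4.3.3) quasi-likelihood tests were run with TMM scaling on members against the lowest 50% (library as a block), ileal against jejunal members, and their interaction. A gene was called when its p, adjusted by Benjamini-Hochberg over every gene tested, was under 0.05. Values are log2 fold changes with approximate standard errors (SE), and CPM are UMIs of the gene per 1000000 UMIs of the sum. The SE was worked back from the edgeR test, as the size of the log2 fold change over the square root of its F statistic. Tests on 2 mice per region measure the spread between these libraries, and intervals cover counting error only.

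Replicate numbers pair the samples because both segments came from the same mouse. Named genes were the 6 ranking genes, genes of the fixed lists, and, per comparison, called genes with the highest and lowest fold change (12 each way for members against the lowest 50%, 5 each way for the others), with at least 20 CPM, the same direction in all libraries or mice and no gene-model name. The members, markers and lists were chosen with earlier results of these data known. On simulated counts the tests recovered 71 of 100 genes changed by 1 log2 unit and 86 of 100 changed by 2, with 11 false calls over 14894 genes, for members against the lowest 50%. The corresponding values were 56, 98 and 5 (11569 genes) between regions and 18, 56 and 4 (15682 genes) for the interaction. The simulated counts had the same dispersion for every gene and, apart from the changed genes, no difference between libraries or mice except depth. The rates in the real counts may therefore differ. Promoters came from RefSeq on GRCm38.p6 and transcripts of the Sprr2a copies from GENCODE on GRCm38, and were used for sequence only. Coordinates on GRCm39 were not used here. Alternatives were DESeq2 1.42.0, the low-count filter, scaling, depth, mitochondrial limit, member share, score, gate, doublets, goblet, immune and crypt cells, the mouse pairing and each library left out.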

Additional observations from a re-analysis of the deposited data

Results flagged for a closer look

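For 19 of the named genes the member difference differed between ileum and jejunum by the interaction test (edgeR quasi-likelihood with library as a block, Benjamini-Hochberg adjusted p under 0.05), given here as the ileal minus the jejunal log2 fold change. Among genes named for the member comparison it was greater in the ileum for Trf (2.51), Apol7a (2.47), Dnm3 (2.09), Slfn2 (2.06), Clca4a (1.63), Cgnl1 (1.22), Gpr151 (0.89) and Aplp1 (0.79), all of which were higher in members in 4 of 4 libraries. Sult6b2 fell further in ileal members (-1.14). The 10 genes named for the interaction itself were Emp2 (3.89), Phgr1 (3.67), Cyp11a1 (3.31), Ctnnd2 (2.82) and Sfn (2.63) with positive values and Reg3b (-3.32), Reg3g (-3.28), Anxa8 (-3.11), Ephb2 (-2.47) and Fstl4 (-2.42) with negative values. The ileal members were Sprr2a2-rich and deeper, and the jejunal members were mostly led by Enpp3 and shallower. The part of these features in the differences was not tested.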

How the results depend on the processing

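Members against the lowest 50% gave 5814 called genes, and between 4554 and 6338 under the alternatives of tool, filter, scaling, mitochondrial limit, member share, depth, gate, doublets and comparison cells, with 4124 to 5503 when a library was left out. The count was 3568 with the mean of standardized levels as score, 2605 with cells of 3 or more stem and cycling UMIs left out and 2333 with no replicate block. Between regions within the members the count was 1493, with 794 for the stem and cycling alternative, 2657 with no low-count filter, 659 to 1939 with a library left out (659 without ileum replicate 1) and 2805 with the replicate block of the mouse pairing, of which 1492 were shared with the fit without it. The interaction gave 747 genes, with 1341 for no low-count filter, 1259 for the standardized score, 470 with goblet-list cells left out (an alternative chosen after seeing the data, as were those on immune and core crypt cells) and 106 to 1591 with a library left out. For genes left out of the ranking, given as a description, Nt5e was at 2.47 without ileum replicate 2, within 1.65 to 3.22 over single libraries left out, and Nhs at 2.61 with DESeq2 and at 2.15 to 4.08 with a library left out. Of the named genes, Olfm4 turned to 0.36 with stem and cycling cells left out and to 0.48 with core crypt cells left out, the interaction of Ctnnd2 to -0.34 with stem and cycling cells left out and that of Reg3b to 0.81 without jejunum replicate 1 (-5.46 without ileum replicate 1). Causes were not tested. Named-gene values kept direction and call in 516 instances for members against the lowest 50%, 202 between regions and 173 for the interaction, and lost the call in 10, 0 and 25. Instances in which a gene dropped out of the test, as Gzma did between regions, are not in these counts. With stem and cycling cells left out, only 7 of the 10 genes named between regions were counted. Low UMI counts limit Nt5e, Serpinb6b and Nhs in the jejunum, where a median member held 7 or 5 UMIs over the 6 genes.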

Other observations

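Osteocalcin-locus genes, and the counts of a regional gene list in members against the lowest 50%, were not given above. Cells with 3 or more Bglap, Bglap2 or Bglap3 UMIs had been left out by the gate, a limit on raw UMIs that acts more strongly on the deeper comparison cells, so their values are a description with no test. Among the remaining cells Bglap was at 4.4, 6.5, 10.2 and 5.6 CPM in the members of ileum replicates 1 and 2 and jejunum replicates 1 and 2, and at 2.8, 2.0, 3.7 and 2.2 CPM in the lowest 50%, a log2 difference of 1.45, with 1.74 for Bglap2 and 1.15 for Bglap3. The copies are similar in sequence, so their separate counts are uncertain. Egr2, an immediate early transcription factor, was lower in members of 4 of 4 libraries (-2.22). Apcdd1, a Wnt inhibitor, was called higher (1.09), but in ileum replicate 1 it was at 6.5 CPM in members and 7.7 CPM in the lowest 50%. Of 21 genes of a regional list, 8 were higher and 10 lower in members, beside 39.4% of all genes called.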
